A study of Homo sapiens with 2 samples.

Results

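A set of 10 genes that encode ligands of immune checkpoint receptors was followed by RNA sequencing in C4-2B cells after inhibition of the kinase ACK1. They were taken from the table of gene counts by symbol (CD274, PDCD1LG2, CD276, VTCN1, CD47, LGALS9, PVR, NECTIN2, CD80 and ICOSLG), and all 10 were found among its 60671 distinct genes. C4-2B is a human castration-resistant prostate cancer (CRPC) line that descends from LNCaP. The cells received vehicle or the ACK1 inhibitor (R)-9b at 1 µM overnight in medium with serum, and 1 library was sequenced per condition. Both libraries come from the same established line, so the comparison covers 1 tumour cell background in culture.

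Checkpoint ligands are surface or secreted proteins by which a tumour or antigen-presenting cell restrains or supports the lymphocytes and macrophages that touch it. PD-L1 and PD-L2, encoded by CD274 and PDCD1LG2, engage PD-1 on T cells, and interferon-γ is the best-known inducer of PD-L1 through JAK1, JAK2 and IRF1. The B7 family also holds B7-H3 (CD276) and B7-H4 (VTCN1), the CD28 and CTLA-4 ligand CD80 and the ICOS ligand ICOSLG, whereas PVR and NECTIN2 bind TIGIT and CD226, galectin-9 (LGALS9) binds TIM-3, and CD47 signals to SIRPA on macrophages to block engulfment.

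The libraries held 65207444 counts (vehicle) and 57653965 counts ((R)-9b), of which 1.495% and 9.542% came from mitochondrially encoded genes. The part of that difference in the values below was not tested, although leaving those genes out of the totals moved every log2 ratio by 0.0005. The labels name a breast tumour as the cell type, so marker lists were checked. All 12 prostate epithelial markers were detected, each with at least 3702 counts in a library, among them KLK3 (PSA) with 146597 and 297728 counts and EPCAM with 6305 and 3702 counts. Of 8 breast epithelial markers, 2 had 0 counts in each library, the list summed to 3.71 and 12.9 scaled CPM (counts divided by the TMM-scaled library total, the usual depth-normalised unit), and ESR1 had 2 counts in each. Of the rest, PIP had 124 and 595 counts, TFF1 41 and 73, GATA3 38 and 30, SCGB2A1 32 and 29, and PGR 10 and 2. Of 18 immune markers, 7 and 8 had 0 counts and the list summed to 6.49 and 2.83 scaled CPM. The pan-leukocyte gene PTPRC had 0 counts in both libraries and the T-cell gene CD3E had 2 and 0 counts. The most abundant of the list, singled out after their values had been seen, were ITGAX with 136 and 15 counts, CD4 with 117 and 15 and CD8A with 110 and 61, all lower in (R)-9b, and their part in the results was not tested. The 9 stromal and endothelial markers summed to 31.7 and 47.8 scaled CPM, with 2 and 1 at 0.

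In both libraries 4 ligands carried nearly all of the signal. Levels are given as TMM-scaled CPM per kilobase of merged exons, so that genes of different length can be set side by side, each with its exact 95% Poisson interval. In vehicle, CD276 stood at 41.7 (41.1 to 42.4), PVR at 15.9 (15.4 to 16.4), NECTIN2 at 6.70 (6.38 to 7.03) and CD47 at 4.56 (4.38 to 4.74). These levels lay at percentiles 93.1, 81.4, 63.0 and 54.2 of the 14780 protein-coding genes compared, whose median level was 3.76. CD276 alone made up 60.3% of the summed per-length level of the ligands in vehicle and 61.6% in (R)-9b, and PVR a further 22.9% and 22.7%.

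A gap of 34.0-fold separated CD47 from the next ligand in vehicle. VTCN1 (0.134), CD274 (0.117) and ICOSLG (0.0900) followed at percentiles 13.8, 12.8 and 11.1, then CD80 (0.0375), LGALS9 (0.00526) and PDCD1LG2 at 0. From VTCN1 downwards each neighbour's interval overlapped the next, so neighbours among these 6 genes were not resolved at this depth, although VTCN1 (0.0883 to 0.195) lay above LGALS9 (0.000637 to 0.0190), whereas the first 4 were separated from their neighbours by more than counting error. The vehicle order of NECTIN2 over CD47 depends on the merged-exon length, since CD47 had more scaled CPM (37.5 against 25.1). In (R)-9b the same 4 genes led, with NECTIN2 at 7.42 (7.06 to 7.80) and CD47 at 7.05 (6.81 to 7.29) now overlapping. The lower genes then stood in the order ICOSLG (0.199), CD274 (0.147), LGALS9 (0.0124) and VTCN1 (0.0117), with PDCD1LG2 and CD80 at 0. Because the cells were sequenced in bulk, fewer expressing cells and less RNA per cell cannot be told apart.

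**Figure D1:**
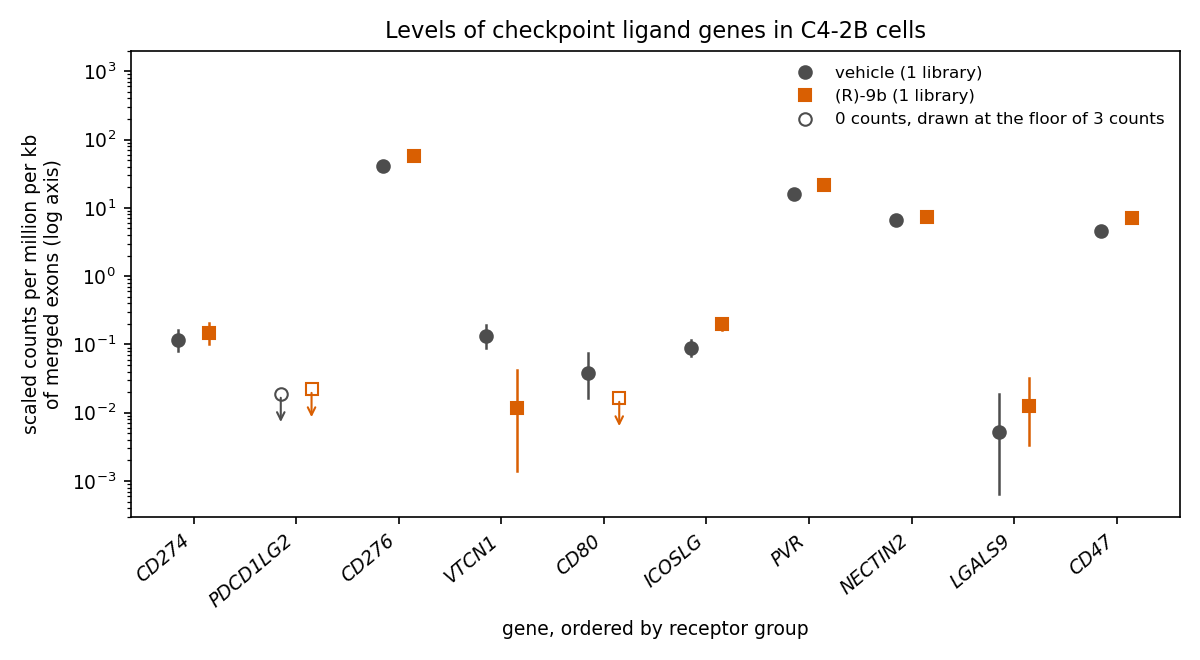
Level of each ligand gene in the vehicle library (circles) and the (R)-9b library (squares), as TMM-scaled CPM per kilobase of merged exons on a log axis, with exact 95% Poisson intervals as vertical lines. Open symbols with arrows mark 0 counts, drawn at the floor of 3 counts. CD276, PVR, NECTIN2 and CD47 sit at 4.56 or above in both libraries and the other 6 genes at 0.199 or below.

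The base composition of the starts, which the choice of genes did not use, is given as a description without a test. RefSeq start sites on GRCh38.p14 were given for 9 of the 10 genes. In the 250 bases upstream of the start, GC content was 67.6% for NECTIN2, 70.0% for PVR, 79.6% for CD47, and 77.2% and 80.8% for the 2 starts of CD276, with 19 to 39 CG dinucleotides. The median over all 35116 promoters was 58.0% with 11 CG dinucleotides. Among the weakly detected genes, GC content was 51.6% for LGALS9 (1 CG), 54.8% for CD274 (16 CG), 56.0% for CD80 (6 CG) and 58.4% for VTCN1 (6 CG), each below the values of the 4 abundant genes. ICOSLG, whose level was also low, had 79.2% with 36 CG, within their range.

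For the comparison of (R)-9b with vehicle, the log2 ratio of scaled counts is given with an exact 95% interval. With 1 library per condition there is no replicate check and no test. The intervals cover counting error only and compare these libraries, not the conditions. Both mates of a read pair appear to be counted, which would make the intervals too narrow, so halved counts were also used. Of the 10 members, 7 had the minimum of 10 counts over both libraries and were compared, 2 had 1 to 9 counts, and 1 had none. The whole interval lay beyond 1.5-fold for 1 member on the higher side (ICOSLG), where 8.71% of the 23446 genes compared lay, and for 1 member on the lower side (VTCN1), where 7.74% lay. The other 5 were within or across that limit. By the looser rule of an interval that excludes no difference, 5 members were higher in (R)-9b (ICOSLG, CD47, CD276, PVR and NECTIN2), against 29.8% of all genes, and 1 was lower (VTCN1), against 31.1%. The median log2 ratio of the 7 members was 0.44, with VTCN1 set at the floor of 3 counts, and that of all genes compared was -0.0049.

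**Figure D2:**
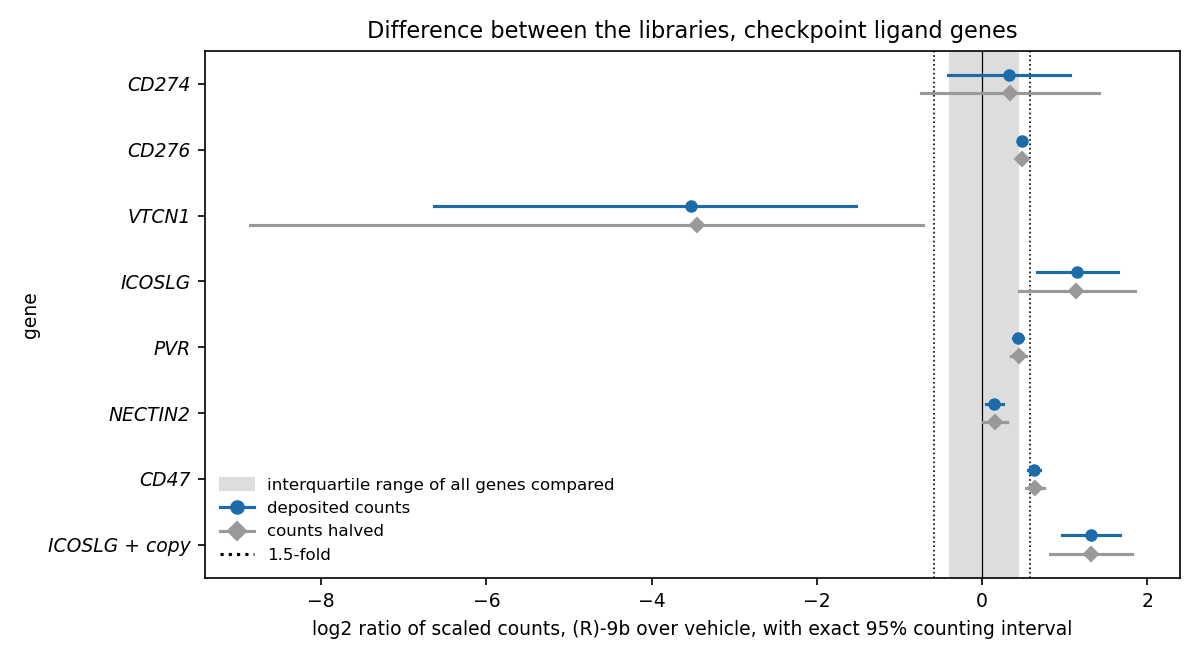
Log2 ratio of TMM-scaled counts, (R)-9b over vehicle, for the 7 ligand genes compared and for ICOSLG summed with its near-identical copy, with exact 95% counting intervals from the deposited counts (circles) and from counts halved (diamonds). The grey band is the interquartile range of all genes compared and the dotted lines mark 1.5-fold. VTCN1 lies to the left of the lower line, and ICOSLG lies to the right of the upper line but reaches across it once counts are halved.

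Of the PD-1 ligands, CD274 was detected at a low level and PDCD1LG2 was not detected. CD274 (ENSG00000120217, chr9:5450503-5470566, plus strand, GRCh38) had 32 counts in vehicle and 34 in (R)-9b, or 0.481 and 0.602 scaled CPM. The libraries overlapped within counting error, with a log2 ratio of 0.33 (-0.41 to 1.07), an interval that reaches from a 0.750-fold to a 2.10-fold level. The estimated transcript counts were 6.93 and 12 for CD274-202 and 2.07 and 0 for CD274-201. PDCD1LG2 (ENSG00000197646, chr9:5510570-5571254, plus strand), which starts 40003 bases beyond the end of CD274, had 0 counts in both libraries. A count of 0 allows a level of up to 0.0451 scaled CPM in vehicle and 0.0531 in (R)-9b.

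The stretch upstream of CD274 that holds its interferon-type motifs is shown because the interferon pathway genes described further on are the known inducers of this ligand. It runs from base -220 to base -101 relative to the RefSeq start (chr9:5450322-5450441, plus strand, GRCh38.p14), with motif matches in capitals:

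CD274: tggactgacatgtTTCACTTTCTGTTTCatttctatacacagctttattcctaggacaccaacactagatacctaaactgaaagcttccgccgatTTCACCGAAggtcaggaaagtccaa

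A set of 4 motifs was searched on both strands in windows of 250 bases before and 50 bases after each start: an IRF motif (GAAANNGAA), a STAT motif (TTCNNNGAA), an AP-1 motif (TGANTCA) and an E-box (CACGTG). CD274 held 2 overlapping IRF matches on the minus strand, from -207 to -199 and from -201 to -193, which form the first run of capitals, and 1 STAT match from -125 to -117. An IRF match occurred in 8.11% of all promoters and a STAT match in 7.66%. Among the other members, LGALS9 held an IRF match from -8 to 1 and VTCN1 an AP-1 match, a motif found in 7.71% of promoters. No E-box, present in 7.26% of promoters, was matched in a member. A match describes these letters only.

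Of the B7 relatives, CD276 was the most abundant ligand and VTCN1 differed most between the libraries. CD276 (ENSG00000103855, chr15:73683966-73714518, plus strand), which encodes B7-H3, a T-cell regulator whose receptor is not settled, had 15400 counts in vehicle and 18190 in (R)-9b. Its scaled level was 231.3 and 322 CPM, a log2 ratio of 0.48 (0.45 to 0.51), or 1.39-fold (1.36 to 1.42). The (R)-9b library was thus higher by more than counting error and by less than 1.5-fold.

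VTCN1 (ENSG00000134258, chr1:117143587-117210960, minus strand), which encodes B7-H4, an inhibitor of T-cell activation, had 27 counts in vehicle and 2 in (R)-9b. The scaled levels were 0.406 and 0.0354 CPM, 11.4-fold lower in (R)-9b with an interval of 2.88-fold to 99.3-fold. With counts halved, the end nearest no difference moved from a log2 ratio of -1.52 to -0.72, still beyond 1.5-fold. The 2 counts of (R)-9b are below the floor of 3 counts, so the size of the difference was poorly resolved, although the whole interval lay on the lower side. VTCN1-201 was the single transcript with an estimate, at 6 and 1. The 120 bases around the start of VTCN1, from -112 to 8 (chr1:117210920-117211039, minus strand, GRCh38.p14), are shown for the AP-1 match at 2 to 8, in capitals, since JUN, an AP-1 subunit, is among the regulators described further on:

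VTCN1: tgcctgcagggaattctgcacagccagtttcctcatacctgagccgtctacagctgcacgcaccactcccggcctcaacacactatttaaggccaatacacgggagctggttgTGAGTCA

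The costimulatory B7 ligands were both weakly detected, and only ICOSLG had enough counts to be compared. CD80 (ENSG00000121594, chr3:119524293-119559602, minus strand), the ligand of CD28 and CTLA-4, had 8 counts in vehicle and 0 in (R)-9b. Its scaled level was 2.26-fold lower at the floor of 3 counts in (R)-9b and at least 1.45-fold lower by its exact interval. With 8 counts in all, CD80 missed the minimum for comparison. The bound takes each count as an independent read, although both mates of a pair appear to be counted. The estimated transcript counts of CD80 were 1 and 0. Of its exon bases, 24.9% also belong to TIMMDC1 on the opposite strand, and 22.0% of its 100-base windows occur in transcripts of that gene. As the strand setting of the counting is not given in the sources used here, reads from the overlap could belong to either gene.

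ICOSLG (ENSG00000160223, chr21:44217014-44240966, minus strand), the ligand of ICOS, had 56 counts in vehicle and 105 in (R)-9b. The scaled levels were 0.841 and 1.86 CPM, a log2 ratio of 1.14 (0.66 to 1.64), or 2.21-fold higher in (R)-9b (1.58 to 3.12). When counts were halved, since both mates of a read pair appear to be counted, the lower end of the interval fell to 0.45 and no longer cleared 1.5-fold. In the estimated transcript counts ICOSLG had 112 and 127, a log2 ratio of 0.44 (0.062 to 0.82).

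These ICOSLG values have a particular limit, because GRCh38 carries a near-identical gene. FP565260.3 (ENSG00000277117, chr21:5022493-5040666, plus strand), which was singled out after its values had been seen, is also described as an ICOS ligand. The coding sequence of FP565260.3-201 was identical to that of ICOSLG-201 over all 927 bases. The first 120 coding bases, the same in both genes, show why reads from them cannot be assigned:

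ICOSLG-201 and FP565260.3-201: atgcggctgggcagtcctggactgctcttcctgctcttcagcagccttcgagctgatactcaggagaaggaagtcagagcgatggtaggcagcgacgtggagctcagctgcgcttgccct

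Of the 100-base windows of ICOSLG transcripts, 31.9% also occur in FP565260.3, and 87.5% of the windows of FP565260.3 occur in ICOSLG. The gene counts came from uniquely aligned reads, so reads inside the shared windows could be lost from both. FP565260.3 had 48 counts in vehicle and 114 in (R)-9b, a log2 ratio of 1.49 (0.99 to 2.00). The sum of both genes was 104 and 219 counts, a log2 ratio of 1.31 (0.97 to 1.66), and it stayed beyond 1.5-fold with halved counts (0.82 to 1.82) and with estimated transcript counts (1.155, 0.909 to 1.404). The counts assigned to each entry were thus higher in (R)-9b, and their sum gave a narrower interval than ICOSLG alone. With 87.5% of the windows of FP565260.3 also in ICOSLG, whether both genes are transcribed was not tested.

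In the estimated transcript counts ICOSLG-204 held 69.9% of ICOSLG in vehicle and 94.2% in (R)-9b. ICOSLG-201, the transcript with the shared coding sequence, was estimated at 25.1 and 0, whereas FP565260.3-201 was estimated at 7.30 and 26.2. The estimates are model values without a counting interval, and for these transcripts the split between the genes rests on bases outside the coding sequence.

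The TIGIT and CD226 ligands were abundant and differed little. PVR (ENSG00000073008, chr19:44643798-44663583, plus strand) had 3717 counts in vehicle and 4265 in (R)-9b, or 55.8 and 75.5 scaled CPM. Its log2 ratio was 0.44 (0.37 to 0.50), 1.35-fold (1.29 to 1.41). NECTIN2 (ENSG00000130202, chr19:44846175-44889228, plus strand), which lies 182591 bases beyond PVR, had 1672 and 1570 counts, or 25.1 and 27.8 scaled CPM. Its log2 ratio was 0.15 (0.047 to 0.25), and the interval included no difference when the libraries were scaled by total counts (0.087, -0.014 to 0.19).

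All 6 annotated transcripts of PVR had an estimate. PVR-202 was the most abundant with 31.7% of the gene in vehicle and 33.3% in (R)-9b, followed by PVR-203 with 28.3% and 26.2%. PVR-201, annotated as a target of nonsense-mediated decay, held 19.4% and 22.4%, and PVR-205 held 17.8% and 13.9%. PVR-204 and PVR-206 made up at most 4.03% each. For CD276, CD47, NECTIN2 and LGALS9, 1 annotated transcript each was not analysed here, and no shares were computed.

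**Figure D3:**
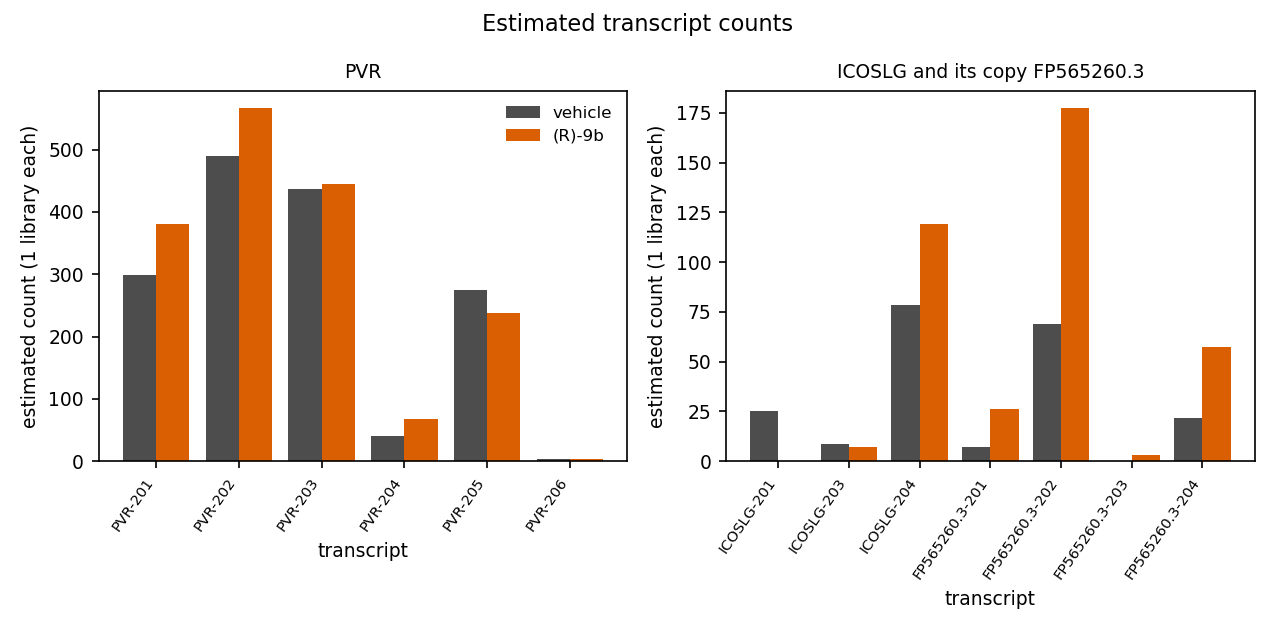
Estimated counts of each transcript with an estimate above 0, in the vehicle library and the (R)-9b library, for PVR (left) and for ICOSLG with its near-identical copy FP565260.3 (right). Bars start at 0 and have no error, since 1 library was made per condition. The same 3 PVR transcripts lead in both libraries, and FP565260.3-202 shows the tallest (R)-9b bar of the right panel.

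CD47 and LGALS9 complete the set. CD47 (ENSG00000196776, chr3:108043094-108091862, minus strand), the SIRPA ligand, had 2495 counts in vehicle and 3272 in (R)-9b, or 37.5 and 57.9 scaled CPM. Its log2 ratio of 0.63 (0.55 to 0.70) corresponds to 1.55-fold (1.47 to 1.63), so the value lay just above 1.5-fold and the interval reached just below it. Scaling by the upper quartile put the whole interval beyond 1.5-fold (0.67, 0.59 to 0.74). By total counts the ratio itself lay below that limit (0.57, 0.49 to 0.64). LGALS9 (ENSG00000168961, chr17:27629798-27649560, plus strand), the TIM-3 ligand, had 2 and 4 counts, a ratio of 2.36 with an interval from 0.338 to 26.1, and no difference was detectable at this depth. Its relatives LGALS9B and LGALS9C, which share 0.209% and 0.636% of their 100-base windows with it, had 0 counts in both libraries.

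Receptors of these and of related checkpoint ligands, which belong mainly to lymphocytes and myeloid cells, were mostly at background. Of 16 receptor genes, 4 had 0 counts in both libraries, 8 had 1 to 9 counts and 4 were compared. Of those 4, 1 lay wholly beyond 1.5-fold on the higher side (8.71% of all genes did) and none on the lower side (7.74%), and their median log2 ratio was 0.80, against -0.0049 for all genes. It was CD160, which encodes a receptor of natural killer and T cells, with 4 and 16 counts and a log2 ratio of 2.24 (0.61 to 4.28), and it no longer cleared the limit with total-count or DESeq2 scaling or halved counts. RGMB, a binding partner of PD-L2 and the most abundant of the list, had 1200 and 1202 counts, a log2 ratio of 0.24 (0.12 to 0.36), and shares 45.6% of its exon bases with genes of the opposite strand. Beside these receptors, the immune markers gave 0 counts for PTPRC in both libraries but 117 and 15 for CD4, 110 and 61 for CD8A and 136 and 15 for ITGAX.

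Of 23 other ligands and checkpoint relatives, 17 were compared, of which 2 lay beyond 1.5-fold on the higher side (8.71% of all genes did), 1 on the lower side (7.74%) and 14 on neither, with a median log2 ratio of 0.37. CEACAM1, an adhesion molecule that also binds TIM-3, had 17 and 54 counts, a log2 ratio of 1.91 (1.10 to 2.79). CD24, the ligand of SIGLEC10, had 116 and 220 counts, a log2 ratio of 1.16 (0.83 to 1.498). BTNL2, a butyrophilin-like inhibitor of T cells, had 47 counts in vehicle and 0 in (R)-9b. It was at least 10.4-fold lower by its exact interval and 13.3-fold lower at the floor of 3 counts. With counts halved, the log2 bound of its exact interval moved from -3.38 to -2.28. HMGB1, the most abundant, had 21462 and 19135 counts and a log2 ratio of 0.072 (0.044 to 0.10).

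The transcriptional regulators of these ligands were each detected in at least 1 library, and their median lay near no difference. Of 22 genes, 1 lay beyond 1.5-fold on the higher side (8.71% of all genes did), 3 on the lower side (7.74%) and 18 on neither, with a median log2 ratio of -0.056. By the looser rule, 9 were above no difference (29.8% of all genes were), 10 below (31.1%) and 3 included it. In the interferon-γ chain above CD274, the receptor subunits gave log2 ratios of -0.13 (-0.25 to -0.0049) for IFNGR1, with 1259 and 978 counts, and 0.42 (0.32 to 0.53) for IFNGR2, with 1310 and 1491 counts. The kinase JAK1 had 278 and 279 counts, a log2 ratio of 0.24 (-0.0019 to 0.49). JAK2, whose gene ends 322319 bases before CD274, had 1000 and 671 counts, a log2 ratio of -0.34 (-0.48 to -0.20).

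Downstream of the kinases, IRF1, the transcription factor that acts at IRF motifs, had 519 and 315 counts, a log2 ratio of -0.48 (-0.69 to -0.28), and shares 22.0% of its exon bases with genes of the opposite strand. JAK2 and IRF1 were lower in (R)-9b by a value under 1.5-fold, while the interval of CD274 included no difference.

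Among the genes of this list beyond 1.5-fold were IRF9, SOCS1 and JUN. IRF9, a DNA-binding subunit of the type I interferon response, had 0 counts in vehicle and 30 in (R)-9b. It was at least 9.01-fold higher by its exact interval and 11.8-fold higher at the floor of 3 counts. With counts halved, the log2 bound of its exact interval moved from 3.17 to 2.09. Of its exon bases, 48.4% also belong to AL136295.5 on the same strand, whose reads are ambiguous with it. SOCS1, the feedback inhibitor of JAK kinases, had 93 and 10 counts, a log2 ratio of -2.98 (-4.09 to -2.04). JUN had 8440 and 2132 counts, a log2 ratio of -1.75 (-1.82 to -1.68). STAT3, the most abundant, had 19702 and 17964 counts and a log2 ratio of 0.10 (0.075 to 0.13).

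Genes whose products stabilise, degrade, glycosylate or cleave PD-L1, CD47 and their relatives formed the last list. Of 26 genes, 24 were compared, 1 lay beyond 1.5-fold on the higher side (8.71% of all genes did), 2 on the lower side (7.74%) and 21 on neither, with a median log2 ratio of 0.014. HIP1R, an adaptor that carries PD-L1 to the lysosome, had 4118 and 6340 counts, a log2 ratio of 0.86 (0.80 to 0.92). SYVN1, a ubiquitin ligase of the endoplasmic reticulum, had 14945 and 7037 counts, a log2 ratio of -0.85 (-0.89 to -0.81). STT3A, a catalytic subunit of the N-glycosylation complex, had 26365 and 14421 counts, a log2 ratio of -0.63 (-0.66 to -0.60). USP22, a deubiquitinase and the most abundant, had 34453 and 23464 counts and a log2 ratio of -0.32 (-0.34 to -0.29).

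**Figure D4:**
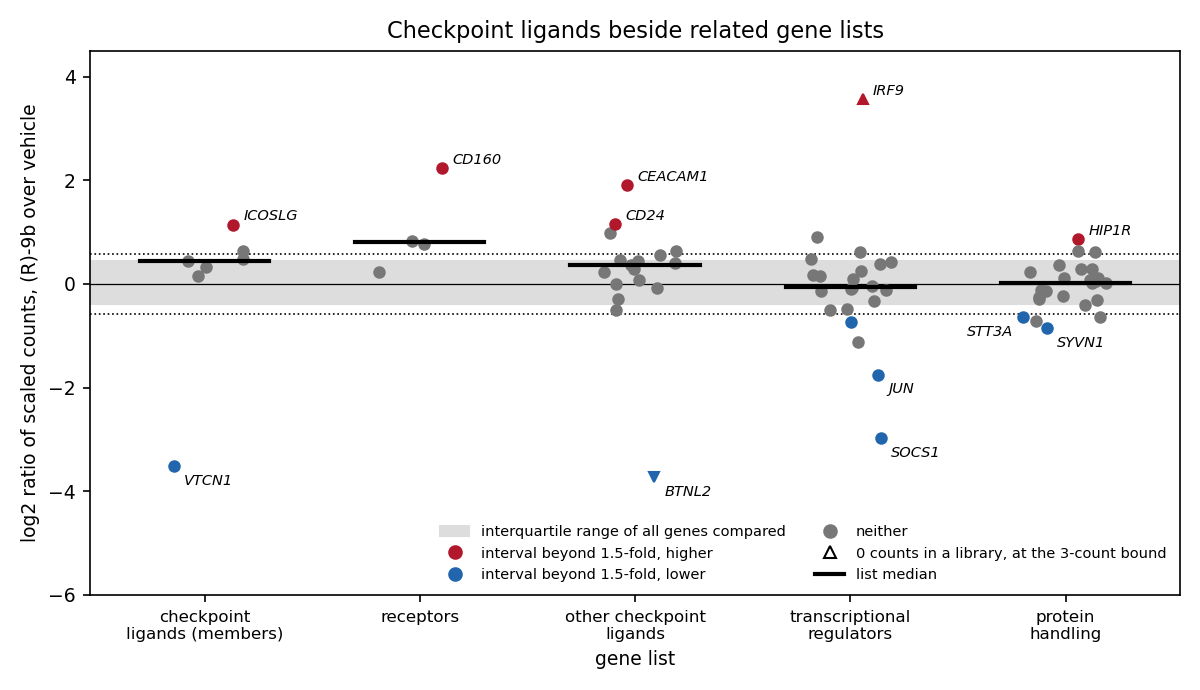
Log2 ratio of TMM-scaled counts, (R)-9b over vehicle, for each gene compared in the checkpoint ligands and in 4 related lists, with the list median as a bar and the interquartile range of all genes compared as a grey band. Genes whose whole 95% counting interval lies beyond 1.5-fold are coloured and, where described in the text, named, and triangles mark genes with 0 counts in a library, drawn at the bound set by 3 counts. The bars of the ligands (0.44), the receptors (0.80) and the other ligands (0.37) lie above those of the regulators (-0.056) and the protein handling genes (0.014). The receptor bar rests on the 4 genes compared, some with few counts, such as CD160 with 4 and 16.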

How the data were processed

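Poly-A RNA of C4-2B cells was sequenced in 1 vehicle library and 1 (R)-9b library, grouped by the labels. Per the labels' processing notes, the tools were STAR 2.5.1a, featureCounts 1.4.6-p5 and Salmon 0.8.2 with hg38. The authors deposited whole-number gene counts of uniquely aligned, unambiguous reads, the same values as CPM and as moderated log2 CPM, and estimated counts and CPM per transcript. Their role for each table is not stated. Among counts of 1 to 20, 72.2% (vehicle) and 70.4% ((R)-9b) were even, so both mates of a pair appear to be counted. PCR copies were not marked.

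Repeated lines were dropped (60871 lines, 60671 genes). Counts were scaled with TMM in edgeR 4.0.16 (R 4.3.3). Exact 95% intervals (Clopper-Pearson for ratios, Poisson for levels) were computed with Python 3.11.15, numpy 2.4.6, pandas 2.3.3 and scipy 1.17.1 and cover counting error only. Genes whose counts in the libraries summed to 10 or more were compared. With 1 to 3 counts the ratio and its interval are given, and with 0 counts the end of the interval and the fold at a floor of 3 counts. The scripts were tested on simulated data. Figures were drawn with matplotlib 3.10.9. Lengths, exon overlaps and transcripts came from GENCODE on GRCh38, and promoters from RefSeq on GRCh38.p14.

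The members and lists were chosen with earlier results of these data known. The text names all members, list genes whose interval lies beyond 1.5-fold (at most 6 per direction), each list's most abundant gene, the interferon-γ chain with JAK2, the galectin-9 relatives and the defining markers. Some genes that this rule covers are not reported here. Alternatives were total-count, DESeq2 1.42.0 and upper-quartile scaling, TMM without mitochondrial genes, halved counts, estimated transcript counts, deposited CPM and log2 CPM, 5 counts added, minimums of 1 and 50 counts, a 2-fold limit, the point ratio, protein-coding genes only, an added coefficient of variation of 0.1, and other lengths. The coefficient of variation for single members and the sum of ICOSLG with its copy were added after seeing the data.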

Additional observations from a re-analysis of the deposited data

How the results depend on the processing

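No paired analysis was possible because each condition has 1 library. Of 264 values under alternatives for 30 results, 202 stayed close to the reported value. Close means within its counting interval, within 1.5 times its count, or an unchanged share or order. Where a log2 ratio had an interval of its own, these also kept their call. Deposited CPM, log2 CPM and the 5 added counts gave no interval, so their calls were not checked. Transcript shares from deposited CPM and member counts among protein-coding genes could not have differed. None of the 8 log2 ratios of members, or of ICOSLG with its copy, reversed. NECTIN2 included no difference by total counts (0.087) and with a coefficient of variation of 0.1 (0.15). CD276 moved beyond its narrow interval by total counts, deposited CPM and deposited log2 CPM (0.42 each) and by the upper quartile (0.51). ICOSLG moved to 0.44 with estimated transcript counts, and VTCN1 lay at -1.95 with 5 counts added.

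Members higher beyond 1.5-fold numbered 1, and 2 by the upper quartile and by the point ratio, and 0 with halved counts, estimated transcript counts, a 2-fold limit or the added variation. Members lower beyond 1.5-fold numbered 1, and 0 with estimated transcript counts or a minimum of 50 counts. By the looser rule, members above numbered 5, and 2 with estimated transcript counts, and members below numbered 1, with 0 from estimated transcript counts and a minimum of 50 and 2 with a minimum of 1. Estimated transcript counts could be used for the 6 members with all transcripts listed, of which 3 had 10 counts.

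Over all 23446 genes compared, 2042 (8.71%) were higher beyond 1.5-fold. This became 854 of 11341 genes with estimated transcript counts, 985 at 2-fold, 4747 by the point ratio, 1283 among protein-coding genes and 1254 with the added variation. Estimated transcript counts and protein-coding genes draw on fewer genes, and shares under the alternatives were not computed, here or beside the member and list counts. The 1814 lower became 723, 807, 4218 and, with the added variation, 997. The 6977 above no difference became 3492 with estimated transcript counts and 3926 with the added variation, and the 7293 below became 3475 and 3671.

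In the lists, receptors higher numbered 1, and 0 by total counts, DESeq2, halved counts, estimated transcript counts, a minimum of 50, 2-fold and the added variation, and 3 by the point ratio. Other ligands higher numbered 2, and 0 with estimated transcript counts, 1 at 2-fold and 4 by the point ratio, and lower numbered 1, and 0 with a minimum of 50 or the added variation. Regulators higher numbered 1, and 2 by the upper quartile, 3 by the point ratio and 0 with estimated transcript counts, a minimum of 50 or the added variation. Protein handling genes higher numbered 1, and 3 by the upper quartile and the point ratio and 0 at 2-fold or with the added variation. Lower they numbered 2, and 4 by total counts and the point ratio, 1 by the upper quartile and halved counts, and 0 with estimated transcript counts, 2-fold or the added variation. With estimated transcript counts per transcript length, 3 of 6 members changed rank in vehicle. Beyond the alternatives' own construction (fewer genes, fewer counts, another limit), the cause was not tested. Depth limits CD274, VTCN1, CD80, LGALS9 and PDCD1LG2, whose counts were at most 34 in a library.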

Other observations

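Outside the comparisons, several genes of the marker lists differed between the libraries, and they were singled out after their values had been seen. CD4, a helper T-cell and myeloid marker, had 117 counts in vehicle and 15 in (R)-9b, and ITGAX, a dendritic cell integrin, had 136 and 15, while PTPRC had 0 in both libraries. PIP, a secretory protein of breast and other apocrine glands that is androgen-responsive, had 124 and 595 counts, 5.66-fold higher in (R)-9b (4.66 to 6.92). Of the 12 prostate epithelial markers, 4 lay beyond 1.5-fold on the higher side (8.71% of all genes did) and none on the lower side (7.74%). The higher ones included KLK2, KLK3 and SLC45A3, with log2 ratios of 1.44, 1.26 and 1.68. By the looser rule, 8 were above no difference (29.8% of all genes were) and 3 below (31.1%), among them EPCAM with a log2 ratio of -0.53.

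Within the related lists, ADAM17 and MARCHF8 had ratios past 1.5-fold, with intervals that reached back across it. ADAM17, a sheddase, had 1372 and 709 counts, a log2 ratio of -0.71 (-0.85 to -0.58), and MARCHF8, a membrane ubiquitin ligase, had 3414 and 1858 counts, a log2 ratio of -0.64 (-0.72 to -0.56). These were also chosen after their values had been seen.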
